A study of Mus musculus with 16 samples.

Results

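The hepatic response to a fast of 24 h was examined in mice without functional PPARβ/δ, the nuclear receptor encoded by Ppard. It was taken as the difference between knockout fasted and knockout fed livers, which were 7 of the 16 arrays of the series. Knockout fasted livers came from 3 PPARβ/δ knockout mice that went without food for 24 h, and knockout fed livers from 4 knockout mice with food. Wild-type fasted livers (5 mice) and wild-type fed livers (4 mice) served to test whether the response differed between genotypes. All mice were male and of a mixed Sv129/C57Bl/6 background, and each array held liver RNA of 1 mouse. The sources used here do not give the age of the mice, the part of the gene that the knockout allele lacks, or whether it is lost in every tissue. By the design text a group held 4 to 5 mice, whereas knockout fasted livers had 3 arrays.

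In fasting, fatty acids released from adipose tissue reach the liver, are burned in mitochondria and peroxisomes, and are turned into ketone bodies that feed other organs. PPARα, a sister receptor of PPARβ/δ that binds fatty acids, is known to switch on much of this program. Synthesis of fatty acids and cholesterol, which the SREBP transcription factors drive in the fed state, is known to be turned down at the same time.

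Expression was measured on Affymetrix whole-transcript arrays and is given as log2 of the deposited intensity. A change is the knockout fasted mean minus the knockout fed mean on that log2 scale, so that 1 is a doubling, and ± after a change is its standard error in a limma fit of all 16 arrays (n = 3 and 4 for the knockout groups). A gene was called at a Benjamini-Hochberg adjusted p under 0.05 over the 19935 genes tested. Array medians lay between intensities of 8.08 and 8.61, and arrays of the same group correlated at 0.9835 to 0.9913. Albumin (Alb) averaged 12.33 in knockout fasted and 12.30 in knockout fed livers, and none of the 10 measured hepatocyte markers was called or had an unadjusted p under 0.05. Genes with a mean under 2.79, the 40th percentile of gene means, are referred to as dim.

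Knockout fed mice 1 and 4 stood apart from the other knockout fed mice on the first principal component and in acute phase genes. On the first principal component of the 7 knockout arrays (42.5% of the variance of 11961 brighter genes), the 3 fasted livers scored 18.5 to 20.5, whereas fed livers 1 and 4 scored -23.3 and -22.5 and fed livers 2 and 3 scored -7.9 and -5.5. On the second component (17.7%) fed liver 2 stood apart instead, at -26.9 against 2.3, 2.8 and 13.6 for fed livers 1, 3 and 4. Fed livers 2 and 3 were thus not alike either. The mean deviation of 44 acute phase genes from their 16-array means was -0.02, -0.23 and -0.08 in knockout fasted mice, against 0.80, -0.33, 0.21 and 1.29 in knockout fed mice 1 to 4. A second fit without fed mice 1 and 4, which leaves 3 fasted and 2 fed livers, is referred to as the reduced comparison, and its outcome is given beside the calls described below. It leaves out the fed livers farthest from the fasted livers on the first component, so smaller changes there are in part built in.

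Fasting changed 732 genes in knockout liver, 3.67% of those tested, with 373 higher (1.87%) and 359 lower (1.8%). Of these, 65 rose and 59 fell at least 2-fold. The median change over all genes was -0.02. Among the 732 genes, 714 had fasted and fed values that did not overlap, whereas 2636 of all genes (13.2%) had no overlap. The calls were made from the same values, so the overlap count is no separate support for them. In the reduced comparison 218 genes were called (1.09%), 98 higher (0.492%) and 120 lower (0.602%). The counts for gene lists below stand against these shares of all genes. The 218 genes included 89 of the 373 genes that rose and 109 of the 359 that fell. All 732 genes kept their sign, which was fixed in advance for the 714 without overlap. The count also depended on single livers, with 330, 374 and 418 genes called without knockout fasted mouse 2, 3 or 1 and 480 without knockout fed mouse 1.

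Ppard, the targeted gene, read 4.50, 4.36 and 4.58 in knockout fasted livers, against 5.00, 4.50, 4.45 and 4.89 in knockout fed livers, with overlapping groups and a change of -0.23 ± 0.16 (adjusted p = 0.578). Because the deleted exons are not known here, this probe set checks nothing about genotype. Ppara read 8.55, 8.55 and 8.43 in knockout fasted livers, against 6.99, 7.83, 8.03 and 7.59 in knockout fed livers. It rose by 0.90 ± 0.20 (adjusted p = 0.0154), with the fasted livers above every fed liver. Without fed mice 1 and 4 its change was 0.58 (adjusted p = 0.122). Pparg, the adipocyte receptor, changed by -0.17 ± 0.12 (adjusted p = 0.555).

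The largest rises were in fatty acid omega-hydroxylation and peroxisomal oxidation, both classical PPARα targets. Of 29 measured genes of these pathways, 17 rose (58.6%, against 1.87% of all genes) and none fell, with a median change of 0.69. In the reduced comparison 11 rose (median 0.65). Cyp4a14, a microsomal omega-hydroxylase of fatty acids, read 11.26, 11.53 and 10.99 in knockout fasted livers, against 7.58, 6.30, 7.18 and 4.24 in knockout fed livers. It was 30.6-fold higher after fasting (4.93 ± 0.69, adjusted p = 0.000794), and its lowest fed value was that of mouse 4. Cyp4a31 read 9.90, 10.18 and 10.03 in knockout fasted livers, against 7.0, 6.84, 6.95 and 4.91 in knockout fed livers (3.61 ± 0.53, adjusted p = 0.00108). Cyp4a10 rose by 3.13 ± 0.42 (adjusted p = 0.000542). The Cyp4a genes are close relatives, so a probe set can share signal among them. Without fed mice 1 and 4 the changes of Cyp4a14, Cyp4a31 and Cyp4a10 were 4.52, 3.15 and 2.60, all called.

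Several acyl-CoA thioesterases, which release free fatty acids from their CoA esters, rose. Acot1, the cytosolic enzyme, read 7.07, 6.85 and 5.93 in knockout fasted livers, against 4.23, 3.77, 3.82 and 3.01 in knockout fed livers, a 7.51-fold rise (2.91 ± 0.51, adjusted p = 0.00439). The peroxisomal enzymes Acot3 (2.20 ± 0.27, adjusted p = 0.000235) and Acot4 (1.83 ± 0.24, adjusted p = 0.000462) rose as well, and all 3 remained called without fed mice 1 and 4. Acot2, the mitochondrial enzyme, rose by 1.21 ± 0.29 (adjusted p = 0.0252), and gave 1.03 in the reduced comparison (adjusted p = 0.217). Acot8, a peroxisomal enzyme, rose by 0.67 ± 0.18 (adjusted p = 0.0435; adjusted p = 0.307 in the reduced comparison). Acot5, Acot6 and Acot9 did not pass, with changes of -0.02, 0.15 and -0.59. Sequences of Acot1 to Acot6 are alike and may share probes. Ehhadh, the bifunctional enzyme of peroxisomal beta-oxidation, read 10.29, 10.29 and 10.11 in knockout fasted livers, against 8.57, 8.98, 9.03 and 8.24 in knockout fed livers (1.52 ± 0.29, adjusted p = 0.00729). In the reduced comparison its change was 1.23 (adjusted p = 0.104). Crat, Pex11a and Acot12 were also called higher, by 1.21, 1.06 and 0.97, and again in the reduced comparison, by 1.19, 1.06 and 0.74.

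**Figure D1:**
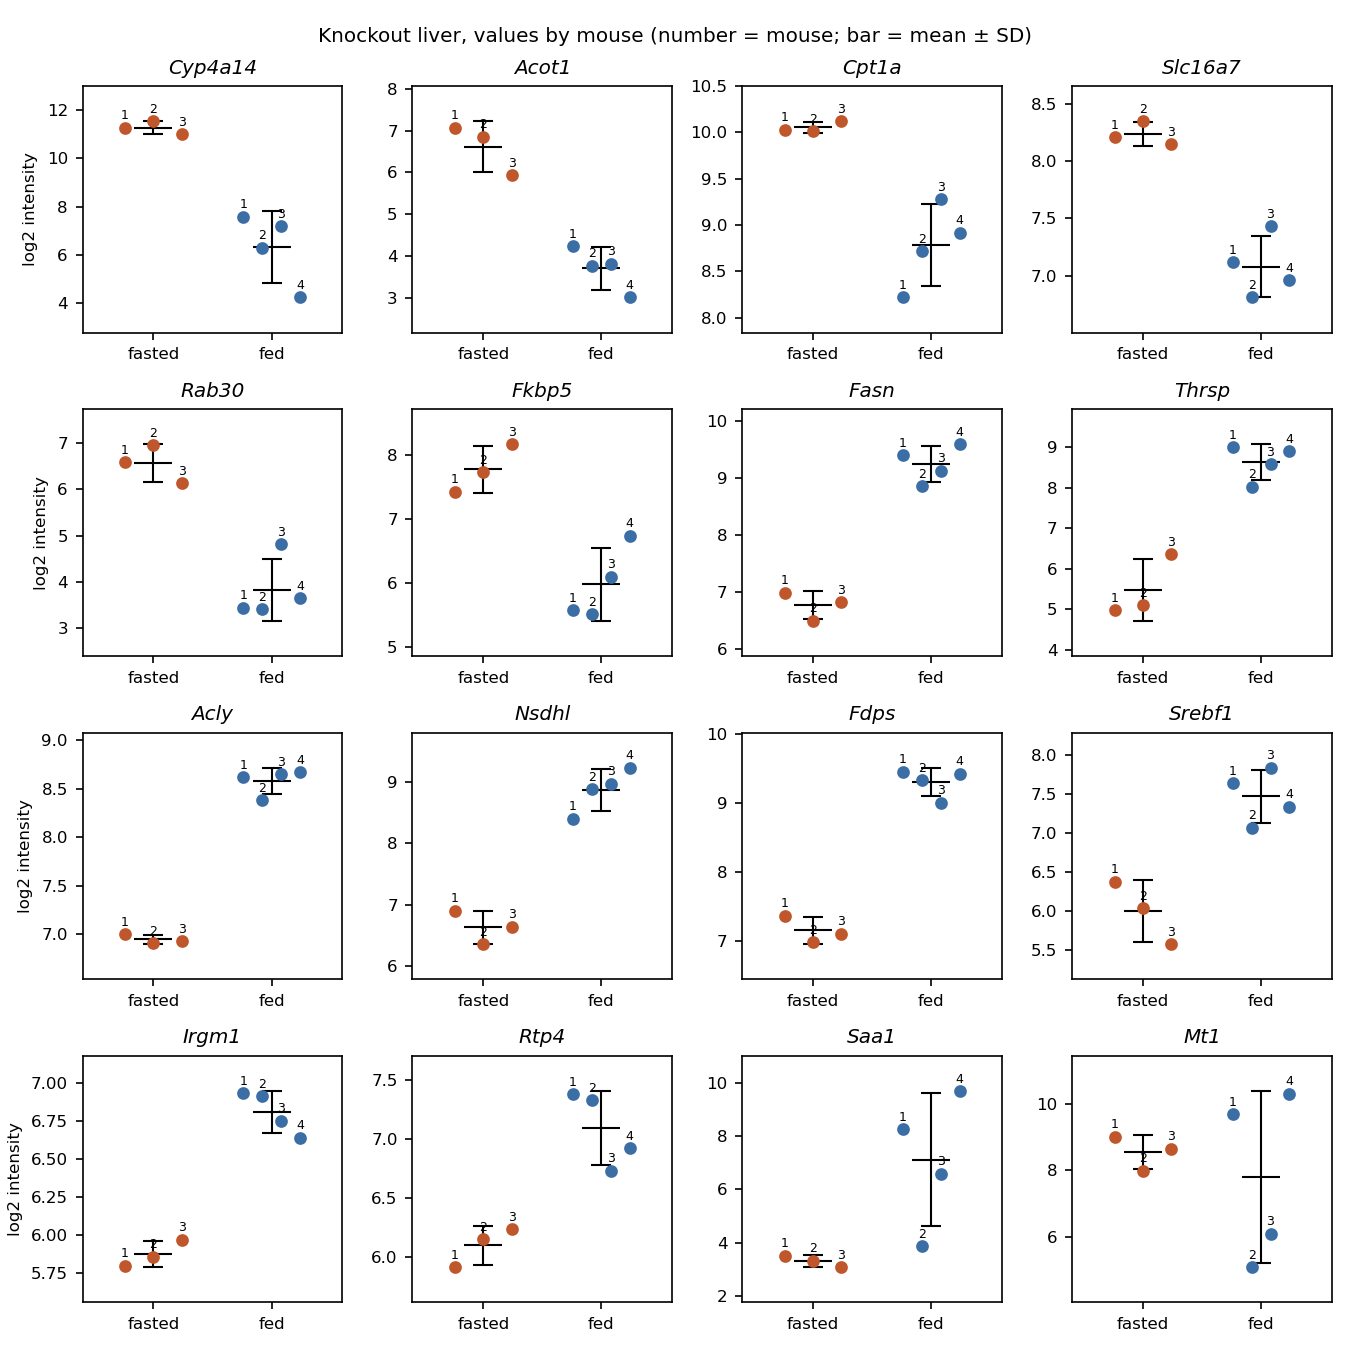
Log2 intensity of 16 genes in each knockout fasted liver (left, orange, n = 3) and knockout fed liver (right, blue, n = 4), with mouse numbers, and bars for mean ± SD. Fasted and fed values do not overlap in 15 of the genes, and in Mt1 fed mice 1 and 4 lie above and fed mice 2 and 3 below the fasted mice.

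Other known PPAR targets followed the same direction. Of 34 measured, 13 rose (38.2%) and none fell (median 0.64), and in the reduced comparison 7 rose (median 0.58). Mfsd2a, a transporter of lysophosphatidylcholine, read 7.66, 7.08 and 7.90 in knockout fasted livers, against 5.58, 3.48, 6.47 and 5.74 in knockout fed livers (2.23 ± 0.52, adjusted p = 0.0235). Vnn1, which makes cysteamine from pantetheine, rose by 2.15 ± 0.54 (adjusted p = 0.0322). Both had similar changes in the reduced comparison, 2.57 and 1.88, but neither was called there (adjusted p = 0.0734 and 0.241). Retsat, a retinol saturase, read 10.12, 10.14 and 9.80 in knockout fasted livers, against 9.0, 8.57, 8.65 and 8.36 in knockout fed livers, and was called with all fed mice (1.38 ± 0.17, adjusted p = 0.000236) and without mice 1 and 4 (1.41, adjusted p = 0.00162). Angptl4, a secreted inhibitor of lipoprotein lipase, rose by 1.15 ± 0.22 (adjusted p = 0.00621) and gave 0.93 in the reduced comparison (adjusted p = 0.0604). Fgf21, a fasting hormone of the liver, read 5.88, 5.85 and 4.83 in knockout fasted livers, against 4.73, 4.90, 4.18 and 4.13 in knockout fed livers. Its groups overlapped and its change of 1.04 ± 0.32 did not pass (adjusted p = 0.0956).

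Mitochondrial fatty acid oxidation rose in 13 of 25 measured genes (52.0%, median 0.47), and none fell. Without fed mice 1 and 4, 5 were called (median 0.44). Cpt1a, which carries long-chain fatty acids across the outer mitochondrial membrane as carnitine esters, read 10.03, 10.01 and 10.12 in knockout fasted livers, against 8.22, 8.72, 9.28 and 8.92 in knockout fed livers. The fasted livers lay close together and above every fed liver (1.27 ± 0.19, adjusted p = 0.00107). Slc22a5, the carnitine importer of the plasma membrane, read 6.74, 6.55 and 6.34 in knockout fasted livers, against 4.73, 5.17, 5.19 and 5.02 in knockout fed livers (1.52 ± 0.18, adjusted p = 0.000146). Slc25a20, the exchanger of acylcarnitines at the inner membrane, rose by 0.75 ± 0.10 (adjusted p = 0.000315), and Eci2, an enoyl-CoA isomerase, by 1.07 ± 0.13 (adjusted p = 0.000216). Within the beta-oxidation spiral the rises were smaller. Acadm and Acadl, dehydrogenases of medium and long chains, rose by 0.52 and 0.55, and Hadha and Hadhb, the subunits of the trifunctional protein, by 0.47 and 0.72. The 5 calls of the reduced comparison were Cpt1a, Slc22a5, Slc25a20, Eci2 and Acadm. Of these, Cpt1a, Slc22a5 and Slc25a20 were also counted among the other PPAR targets, and Eci2 in the omega and peroxisomal list. The counts of these lists are therefore not independent.

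Of 6 measured genes of ketone body synthesis and export, 1 rose and 1 fell, both monocarboxylate transporters. Slc16a7, which moves lactate, pyruvate and ketone bodies, read 8.21, 8.35 and 8.15 in knockout fasted livers, against 7.12, 6.81, 7.43 and 6.96 in knockout fed livers (1.16 ± 0.14, adjusted p = 0.000236). Slc16a6, known as a ketone body exporter in zebrafish liver, read 3.75, 3.71 and 3.60 in knockout fasted livers, against 4.60, 4.50, 4.40 and 5.19 in knockout fed livers (-0.99 ± 0.17, adjusted p = 0.00399). Both were called in the reduced comparison (1.12 and -0.76). Bdh1, the dehydrogenase that makes beta-hydroxybutyrate, changed by 0.45 ± 0.12 (adjusted p = 0.053).

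Genes of lipid storage and release changed in part. Of 21 genes of lipolysis and the lipid droplet, 4 rose and 1 fell (median 0.14). Plin5, a droplet coat protein of oxidative tissues, read 6.66, 6.65 and 6.81 in knockout fasted livers, against 5.67, 5.44, 5.18 and 5.57 in knockout fed livers (1.24 ± 0.14, adjusted p = 9.51e-05), and was the list's only call in the reduced comparison (1.39, adjusted p = 0.000436). Pnpla2, the triglyceride lipase ATGL, rose by 0.83 ± 0.19 (adjusted p = 0.0213), as did its inhibitor G0s2 (1.62 ± 0.42, adjusted p = 0.041), whereas its co-activator Abhd5 fell (-0.64 ± 0.12, adjusted p = 0.00608). Of 23 genes of triglyceride and phospholipid synthesis 5 rose and none fell, and 3 of these, Gpat3 (1.02 ± 0.24), Gpat4 (0.61 ± 0.11) and Chpt1 (0.59 ± 0.12), were called in the reduced comparison too. Among 22 lipoprotein genes 3 rose and 1 fell. Apoa5, which lowers plasma triglyceride, rose by 0.53 ± 0.12 (adjusted p = 0.023). Apobec1, the enzyme that edits Apob messenger RNA, fell by 1.05 on the log2 scale (adjusted p = 0.00943). None of the 4 was called in the reduced comparison.

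Cholesterol synthesis fell almost throughout. Of 18 measured enzymes 15 fell (83.3%, against 1.8% of all genes) and none rose, with a median of -1.50 and every member negative. The reduced comparison called 13 (median -1.39), so that the fall was present without fed mice 1 and 4. Falls ran along the whole pathway. Hmgcs1, which condenses acetyl-CoA units at its entry, read 7.44, 6.96 and 6.82 in knockout fasted livers, against 8.92, 9.27, 8.90 and 9.35 in knockout fed livers (-2.04 ± 0.21, adjusted p = 4.05e-05). Fdps, the farnesyl diphosphate synthase of the middle of the pathway, read 7.37, 6.99 and 7.11 in knockout fasted livers, against 9.45, 9.33, 9.0 and 9.42 in knockout fed livers (-2.14 ± 0.18, adjusted p = 4.49e-06). Sqle, the squalene epoxidase, had the largest fall of the list, 5.05-fold (-2.34 ± 0.36, adjusted p = 0.00143). Nsdhl, a late demethylation enzyme, read 6.90, 6.36 and 6.64 in knockout fasted livers, against 8.40, 8.88, 8.97 and 9.23 in knockout fed livers (-2.24 ± 0.20, adjusted p = 1.25e-05). In all of these enzymes the 3 fasted livers lay below the 4 fed livers. Dhcr7 and Sc5d, which act at the end of the pathway, fell by 1.80 and 0.91 on the log2 scale. All 6 enzymes named here were called in the reduced comparison.

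The promoters of Hmgcs1 and Nsdhl are shown because these genes fell together and SREBP-driven promoters are known to pair a sterol regulatory element with a CCAAT box bound by NF-Y. Each is the 250 bases before the annotated start, 5′ to 3′ on the strand of the gene, from RefSeq (GRCm38.p6), with matches in capitals. Matches to CCAAT on either strand are marked in both (ATTGG where it lies on the opposite strand), and the match to the sterol element core CACCCCAC is marked in Hmgcs1. The Hmgcs1 window is chr13:119690101-119690350 on the plus strand, and the Nsdhl window is chrX:72918271-72918520 on the plus strand.
Hmgcs1: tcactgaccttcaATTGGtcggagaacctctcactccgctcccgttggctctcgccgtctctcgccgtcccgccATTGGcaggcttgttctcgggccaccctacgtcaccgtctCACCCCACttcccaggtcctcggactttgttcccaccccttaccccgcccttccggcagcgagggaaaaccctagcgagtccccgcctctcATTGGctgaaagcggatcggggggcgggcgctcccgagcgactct
Nsdhl: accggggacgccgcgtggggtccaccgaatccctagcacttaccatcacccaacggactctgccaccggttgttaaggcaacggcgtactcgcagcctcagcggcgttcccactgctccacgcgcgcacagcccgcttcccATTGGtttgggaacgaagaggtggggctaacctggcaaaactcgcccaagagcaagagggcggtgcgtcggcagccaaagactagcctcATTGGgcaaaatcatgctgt
The core CACCCCAC lay 136 bases before the start of Hmgcs1. Searched on both strands, it was found in 1 of the 15 cholesterol genes with a window and in 2.98% of all 27025 genes with one. CCAAT was found in 15 of those 15 genes, against 37.5% of all genes, and the letters of the 2 motifs share no overlap in Hmgcs1. A match describes letters only.

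Of 17 regulators of sterol balance 2 rose (11.8%, against 1.87% of all genes) and 6 fell (35.3%, against 1.8%) with all fed mice. None rose and 3 fell in the reduced comparison. Srebf1, which encodes the SREBP1 factors of lipid synthesis, read 6.38, 6.04 and 5.58 in knockout fasted livers, against 7.64, 7.07, 7.84 and 7.34 in knockout fed livers (-1.47 ± 0.23, adjusted p = 0.00149). Rdh11, a retinol dehydrogenase known as an SREBP target, read 5.70, 5.44 and 5.37 in knockout fasted livers, against 7.35, 7.37, 7.24 and 7.40 in knockout fed livers, and the fed mice differed little from each other (-1.83 ± 0.12, adjusted p = 4.14e-07). Insig1, which holds SREBPs in the endoplasmic reticulum, fell by 1.01 on the log2 scale (adjusted p = 0.00539). These 3 were the falls called without fed mice 1 and 4. Srebf2 (-0.52 ± 0.13), the sterol transfer protein Stard4 (-0.83 ± 0.20) and the sterol exporter Abca1 (-0.49 ± 0.13) fell with all fed mice. Mylip, a ubiquitin ligase of sterol uptake, rose by 0.77 ± 0.17 (adjusted p = 0.0157), and Npc1, which exports cholesterol from lysosomes, by 0.50 ± 0.13 (adjusted p = 0.0331). Their changes in the reduced comparison were 0.61 and 0.25 (adjusted p = 0.183 and 0.353).

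Fatty acid synthesis fell in 12 of 26 measured genes (46.2%, median -0.61) and rose in 2, with 9 falls and no rise in the reduced comparison (median -0.66). Fasn, the fatty acid synthase, read 6.98, 6.49 and 6.81 in knockout fasted livers, against 9.40, 8.86, 9.13 and 9.59 in knockout fed livers. It fell 5.59-fold (-2.48 ± 0.17, adjusted p = 7.65e-07). Thrsp (Spot 14), an activator of lipogenesis, read 4.98, 5.11 and 6.36 in knockout fasted livers, against 9.01, 8.03, 8.59 and 8.90 in knockout fed livers, the largest fall of the list (-3.15 ± 0.43, adjusted p = 0.000555). The enzymes that make and carboxylate acetyl-CoA fell by similar amounts. Acly changed by -1.64 ± 0.16 (adjusted p = 2.52e-05), Acss2 by -1.66 ± 0.13 and Acaca by -1.53 ± 0.12 (adjusted p = 1.88e-06 for both). All 5 of these falls were called in the reduced comparison. Scd1, the stearoyl-CoA desaturase, changed by -0.90 ± 0.36 (adjusted p = 0.227). The rises were in Elovl5 (0.68 ± 0.13, adjusted p = 0.00593) and Elovl2 (0.51 ± 0.10, adjusted p = 0.00808), elongases of polyunsaturated fatty acids, with fasted livers above every fed liver in both. Their changes in the reduced comparison were 0.61 and 0.43, and neither was called.

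**Figure D2:**
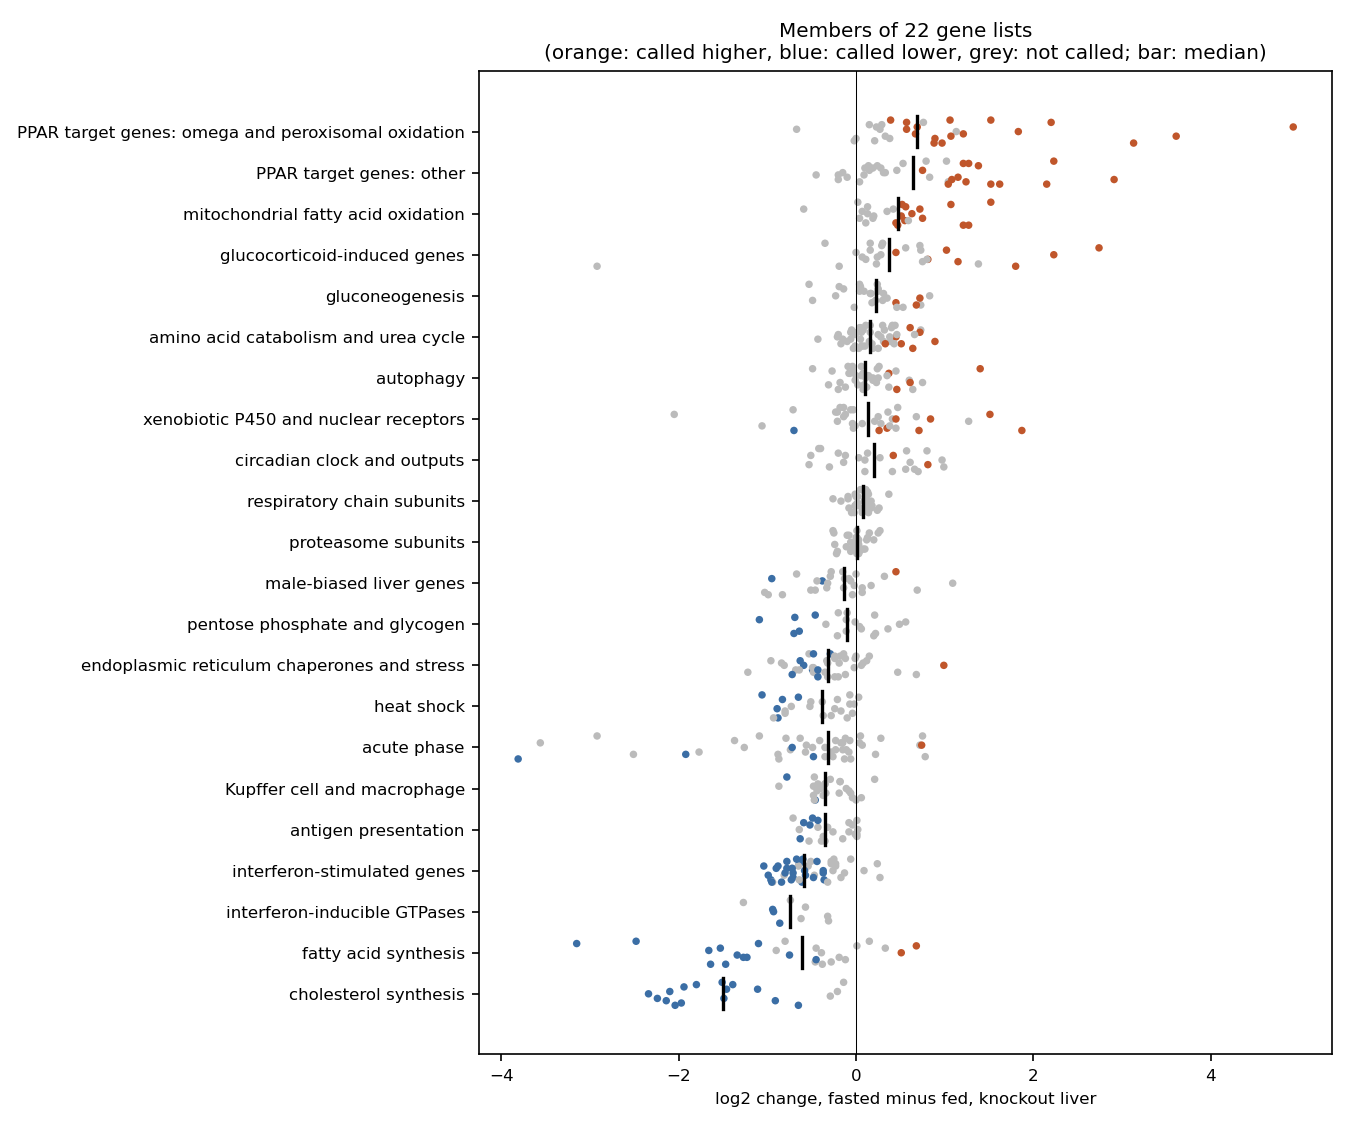
Log2 change (fasted minus fed, knockout liver) of every measured member of 22 gene lists, 1 dot per gene, orange for genes called higher, blue for genes called lower and grey for the others, with a black bar at the median. The medians run from 0.69 for omega and peroxisomal oxidation to -1.50 for cholesterol synthesis.

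Carbohydrate genes changed less. Of 22 genes of glycolysis and fructose entry only Pklr, the liver pyruvate kinase, was called, reading 6.97, 6.69 and 6.88 in knockout fasted livers, against 8.06, 8.38, 8.64 and 8.17 in knockout fed livers (-1.47 ± 0.22, adjusted p = 0.00125; -1.67 in the reduced comparison, adjusted p = 0.00677). Pdk4, an inhibitor of pyruvate dehydrogenase, read 7.19, 5.30 and 4.75 in knockout fasted livers, against 3.58, 5.58, 5.47 and 5.17 in knockout fed livers, so its groups overlapped (0.79 ± 0.61, adjusted p = 0.609). Of 20 genes of the pentose phosphate pathway and glycogen 5 fell (25.0%) and none rose. Pgd, the phosphogluconate dehydrogenase that yields NADPH, read 6.32, 5.79 and 6.03 in knockout fasted livers, against 7.19, 7.24, 7.05 and 7.06 in knockout fed livers (-1.09 ± 0.15, adjusted p = 0.000535). Pygl, the liver glycogen phosphorylase, fell by 0.69 on the log2 scale (adjusted p = 0.00209), and so did Gbe1, the glycogen branching enzyme, by 0.70 (adjusted p = 0.00882). Pgd and Pygl were the calls of this list in the reduced comparison.

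Gluconeogenesis rose in 3 of 27 measured genes (11.1%, median 0.22), and none of them was called in the reduced comparison. The 3 were Gpt2, an alanine aminotransferase (0.72 ± 0.19, adjusted p = 0.0428), Tdo2, which degrades tryptophan (0.45 ± 0.10, adjusted p = 0.0137), and the coactivator Ppargc1b (0.68 ± 0.17, adjusted p = 0.0382). Pck1, the cytosolic PEP carboxykinase, read 11.30, 11.26 and 11.41 in knockout fasted livers, against 10.55, 10.75, 11.09 and 10.77 in knockout fed livers. Its groups did not overlap, but its change of 0.53 ± 0.16 did not pass (adjusted p = 0.0778). G6pc, the glucose-6-phosphatase, read 10.93, 10.52 and 11.04 in knockout fasted livers and 10.09, 11.04, 11.28 and 10.74 in knockout fed livers (0.04 ± 0.25, adjusted p = 0.971). Among 28 genes under insulin and FOXO1, 4 rose and 1 fell. Trib3, an inhibitor of AKT signalling, rose by 0.99 ± 0.21 (adjusted p = 0.0126), and Igfbp2, a carrier of IGFs, by 0.78 ± 0.19 (adjusted p = 0.0309), while Igfbp1 (0.10 ± 0.23) and Irs2 (-0.58 ± 0.31) did not pass. None of these 4 rises was called in the reduced comparison.

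Genes known to be induced by glucocorticoids rose in 7 of 26 (26.9%, median 0.37) and in 5 in the reduced comparison, where the median was 0.90. The 5 were Fkbp5, Per1, Rab30, Mt1 and Mt2. Mfsd2a and Angptl4, already counted among the PPAR targets, were members of this list too. Fkbp5, a co-chaperone of the glucocorticoid receptor, read 7.43, 7.74 and 8.17 in knockout fasted livers, against 5.57, 5.51, 6.10 and 6.74 in knockout fed livers (1.80 ± 0.33, adjusted p = 0.00522; 1.98 without mice 1 and 4, adjusted p = 0.0131). Rab30, a small GTPase of the Golgi, read 6.59, 6.96 and 6.14 in knockout fasted livers, against 3.44, 3.40, 4.82 and 3.65 in knockout fed livers (2.74 ± 0.31, adjusted p = 0.000104; 2.45 without mice 1 and 4, adjusted p = 0.00405). Tsc22d3, the leucine zipper protein GILZ, rose by 1.02 ± 0.23 (adjusted p = 0.0208; 1.07 in the reduced comparison, adjusted p = 0.102). Mt1, a metal-binding metallothionein, read 9.01, 7.99 and 8.65 in knockout fasted livers, against 9.70, 5.08, 6.09 and 10.31 in knockout fed livers. Its fasted values lay between fed mice 2 and 3 and fed mice 1 and 4, so that the change was 0.75 ± 0.94 with all mice (adjusted p = 0.794) and 2.96 without mice 1 and 4 (adjusted p = 0.0151). Mt2 behaved alike, with 0.72 ± 1.33 (adjusted p = 0.878) against 3.83 in the reduced comparison (adjusted p = 0.0309).

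Of 24 clock genes and their outputs, 2 rose in knockout liver (8.33%, against 1.87% of all genes) and none fell, and 1 rose in the reduced comparison. In wild-type liver 10 rose and 6 fell, where 3.3% of all genes rose and 5.92% fell. Per1, a repressor of the clock that glucocorticoids also induce, read 5.47, 5.5 and 5.51 in knockout fasted livers, against 5.06, 4.03, 4.79 and 4.87 in knockout fed livers (0.81 ± 0.19, adjusted p = 0.021; 1.08 without mice 1 and 4, adjusted p = 0.013). Hlf, an output factor, rose by 0.42 ± 0.10 (adjusted p = 0.0264; 0.40 without mice 1 and 4, adjusted p = 0.186). Dbp, another output factor, changed by 0.61 ± 0.45 in knockout liver (adjusted p = 0.594) and by 2.49 in wild-type liver (adjusted p = 0.00068). Arntl (Bmal1), the core activator, changed by -0.51 ± 0.21 in knockout liver (adjusted p = 0.233) and by -1.52 in wild-type liver (adjusted p = 6.99e-05). No gene of this list passed the test of the difference between genotypes, and the sources used here do not give the time of day at sampling.

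Growth hormone signalling shapes the sex bias of liver genes. Of 18 genes of the growth hormone and IGF1 axis 2 rose and 1 fell, and none was called in the reduced comparison. Onecut1 (HNF6), a liver transcription factor, read 4.78, 5.32 and 5.31 in knockout fasted livers, against 7.97, 6.23, 7.28 and 7.44 in knockout fed livers (-2.09 ± 0.55, adjusted p = 0.0436; -1.61 without mice 1 and 4, adjusted p = 0.329). Igf1 changed by 0.24 ± 0.11 (adjusted p = 0.342). Of 28 male-biased genes 1 rose (3.57%, against 1.87% of all genes) and 2 fell (7.14%, against 1.8%) in knockout liver (median -0.14), and none was called in the reduced comparison. In wild-type liver 1 rose and 15 fell (median -0.67), where 3.3% of all genes rose and 5.92% fell. The difference between genotypes was called for 1 of the 28, Hsd3b5, and for none without knockout fed mice 1 and 4. Of 30 female-biased genes 5 rose and 1 fell, with 3 rises and 1 fall in the reduced comparison. Fmo2, a flavin monooxygenase, read 6.55, 7.18 and 7.24 in knockout fasted livers, against 4.83, 4.31, 4.86 and 5.17 in knockout fed livers (2.20 ± 0.32, adjusted p = 0.00108). Aqp8, a water and hydrogen peroxide channel, read 6.70, 6.29 and 5.96 in knockout fasted livers, against 8.83, 8.49, 8.58 and 8.07 in knockout fed livers (-2.17 ± 0.26, adjusted p = 0.000182). Fmo2 and Aqp8 were called in the reduced comparison (2.40 and -2.22).

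Of 34 genes of drug-metabolizing P450s and their receptors, 7 rose (20.6%) and 1 fell, with 2 rises in the reduced comparison. Nr1i3, which encodes the xenobiotic receptor CAR, read 9.36, 9.34 and 8.85 in knockout fasted livers, against 7.11, 8.15, 8.16 and 7.25 in knockout fed livers (1.51 ± 0.22, adjusted p = 0.000998; 1.02 without mice 1 and 4, adjusted p = 0.00327). Nr1i2, which encodes the related receptor PXR, rose by 0.71 ± 0.18 (adjusted p = 0.0304), and Cyp2c38, a cytochrome P450, by 1.87 ± 0.43 (adjusted p = 0.0214). They gave 0.71 and 1.37 without mice 1 and 4 (adjusted p = 0.139 and 0.252). Cyp2b10, a target of CAR, read 3.13, 3.08 and 5.15 in knockout fasted livers and 3.24, 3.65, 3.30 and 3.28 in knockout fed livers (0.41 ± 0.35, adjusted p = 0.66). Adh4, an alcohol dehydrogenase, fell by 0.70 on the log2 scale (adjusted p = 0.023; adjusted p = 0.103 without mice 1 and 4). Of 37 genes of conjugation and export 3 rose and 1 fell, with 1 rise and 1 fall in the reduced comparison. Abcc3, a basolateral exporter of conjugates and bile acids, rose by 1.48 ± 0.28 (adjusted p = 0.00621), and Gstt2, a glutathione transferase, by 1.14 ± 0.21 (adjusted p = 0.00549). Without mice 1 and 4 Abcc3 gave 1.32 (adjusted p = 0.0728) and Gstt2 0.78 (adjusted p = 0.0214). Gstm3, another transferase, fell by 1.01 on the log2 scale with the probe set used (adjusted p = 0.0298; -1.31 without mice 1 and 4, adjusted p = 0.032) and gave -2.44 with its other probe set (adjusted p = 0.000213).

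Bile acid genes rose in 5 of 33 and fell in 1. Cyp8b1, the 12alpha-hydroxylase that sets the share of cholic acid, read 10.56, 10.32 and 10.51 in knockout fasted livers, against 9.30, 9.95, 9.07 and 9.06 in knockout fed livers (1.12 ± 0.20, adjusted p = 0.00494; 0.95 without mice 1 and 4, adjusted p = 0.0741). Cyp7a1, the rate-limiting enzyme of bile acid synthesis, changed by 0.70 ± 0.39 (adjusted p = 0.43). Slco1a4, a sinusoidal anion importer, rose by 1.51 ± 0.29 (adjusted p = 0.00633), and Slco2b1, another importer, fell by 0.52 on the log2 scale (adjusted p = 0.0466). Without mice 1 and 4 they gave 1.00 and -0.39 and were not called (adjusted p = 0.0909 and 0.344). Abcb4, the canalicular exporter of phosphatidylcholine, rose by 0.87 ± 0.14 (adjusted p = 0.00212) and was the list's call in the reduced comparison (0.63, adjusted p = 0.0285).

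Of 50 genes that break down amino acids or form urea, 7 rose (14%, against 1.87% of all genes; median 0.16), and none fell. Asl and Mat1a were the 2 that rose in the reduced comparison, and the other 5 were not called (median 0.17). Asl, the argininosuccinate lyase of the urea cycle, read 10.26, 10.18 and 10.49 in knockout fasted livers, against 9.51, 9.28, 9.51 and 9.39 in knockout fed livers (0.89 ± 0.14, adjusted p = 0.00216). Mat1a, which makes S-adenosylmethionine, rose by 0.61 ± 0.10 (adjusted p = 0.00282). Among 25 transporters 3 rose and 3 fell, with 2 rises and 1 fall in the reduced comparison. Slc16a5, a monocarboxylate transporter, read 5.35, 4.60 and 4.97 in knockout fasted livers, against 2.89, 3.44, 3.42 and 3.62 in knockout fed livers (1.63 ± 0.24, adjusted p = 0.00108). Slc22a7, the organic anion transporter OAT2, read 5.32, 4.70 and 4.58 in knockout fasted livers, against 6.48, 6.49, 6.97 and 6.83 in knockout fed livers (-1.82 ± 0.26, adjusted p = 0.000998). Both were called without mice 1 and 4 (1.55 and -1.86). Autophagy genes rose in 4 of 38 (10.5%, against 1.87% of all genes), and in 2 in the reduced comparison. Bnip3, a receptor for the removal of mitochondria, read 9.09, 9.15 and 8.97 in knockout fasted livers, against 7.75, 7.51, 7.96 and 7.45 in knockout fed livers (1.40 ± 0.14, adjusted p = 2.61e-05), and Map1lc3b, the autophagosome protein LC3B, rose by 0.46 ± 0.11 (adjusted p = 0.0256). These were the 2, with changes of 1.33 and 0.57 there (adjusted p = 0.00106 and 0.0452). None of the 39 respiratory chain genes, 35 genes of ribosome biogenesis and translation or 31 proteasome genes was called by limma. Their medians were 0.08, 0.01 and 0.01, and 2, 4 and 4 of them had an unadjusted p under 0.05.

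Interferon-stimulated genes fell in 25 of 46 (54.3%, against 1.8% of all genes) and none rose, with a median of -0.59. In the reduced comparison 10 fell and the median was -0.62. These genes encode antiviral proteins that type I interferon induces. Rtp4, a small protein that limits flavivirus growth, read 5.91, 6.15 and 6.23 in knockout fasted livers, against 7.38, 7.33, 6.73 and 6.92 in knockout fed livers (-0.99 ± 0.17, adjusted p = 0.00411). Dhx58, a regulator of RNA sensing, read 4.29, 3.84 and 3.89 in knockout fasted livers, against 5.18, 5.47, 4.90 and 4.64 in knockout fed livers (-1.04 ± 0.18, adjusted p = 0.00388). Oasl1, a member of the oligoadenylate synthetase family that lacks its enzyme activity, fell by 0.96 on the log2 scale (adjusted p = 0.0187). Rtp4, Dhx58 and Oasl1 were also called without fed mice 1 and 4. Oas1a (-0.90 ± 0.19, adjusted p = 0.0109) and Zbp1, a sensor of nucleic acids (-0.95 ± 0.20, adjusted p = 0.0108), were not called there (-0.72 and -0.65). The mean deviation of the 46 genes from their 16-array means was -0.02 to 0.04 in knockout fasted and 0.38 to 0.67 in knockout fed livers, and it was -0.50 to -0.22 in wild-type fasted and -0.06 to 0.02 in wild-type fed livers.

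The interferon-inducible GTPases and genes of antigen presentation moved the same way. Of 9 GTPases, which defend against intracellular microbes, 3 fell and every member was negative (median -0.74). Irgm1 read 5.80, 5.86 and 5.97 in knockout fasted livers, against 6.93, 6.91, 6.75 and 6.64 in knockout fed livers (-0.93 ± 0.14, adjusted p = 0.00108; -0.95 without mice 1 and 4, adjusted p = 0.0119). Gbp8 and Gbp3 fell by 0.94 and 0.86 on the log2 scale, with -0.85 and -1.06 in the reduced comparison, where Gbp8 was called (adjusted p = 0.0452) and Gbp3 was not (adjusted p = 0.0723). The 3 falls of the reduced comparison were those of Irgm1, Gbp8 and Gbp9, and guanylate-binding genes are similar enough to share probes. Of 23 antigen presentation genes 5 fell and none rose, among them the immunoproteasome subunits Psmb9 (-0.63 ± 0.14, adjusted p = 0.0207) and Psmb10 (-0.59 ± 0.15, adjusted p = 0.0325). None of these 5 was called in the reduced comparison.

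The promoters of Irgm1 and Bst2 are shown because they hold paired copies of the core of the interferon-stimulated response element. Bst2 encodes tetherin, which holds budding viruses at the cell surface, and fell by 0.67 on the log2 scale (-0.71 without mice 1 and 4, not called, adjusted p = 0.0909). The windows are the 250 bases before each start from RefSeq (GRCm38.p6), 5′ to 3′ on the strand of the gene, with the matches to the motif (GAAA, any 2 bases, GAAA) in capitals. Irgm1 lies at chr11:48871421-48871670 on the minus strand, and Bst2 at chr8:71537473-71537722 on the minus strand.
Irgm1: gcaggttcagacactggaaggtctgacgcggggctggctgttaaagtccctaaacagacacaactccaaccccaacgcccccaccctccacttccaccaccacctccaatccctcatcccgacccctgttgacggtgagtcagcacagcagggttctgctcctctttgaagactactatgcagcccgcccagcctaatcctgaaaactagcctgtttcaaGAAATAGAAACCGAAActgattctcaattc
Bst2: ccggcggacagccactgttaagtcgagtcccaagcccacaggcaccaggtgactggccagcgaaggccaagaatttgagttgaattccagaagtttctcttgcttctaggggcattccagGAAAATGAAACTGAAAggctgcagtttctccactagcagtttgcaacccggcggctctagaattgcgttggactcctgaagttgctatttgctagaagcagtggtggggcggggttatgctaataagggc
In Irgm1 the overlapping matches began 30 and 24 bases before the start, and in Bst2 130 and 124 bases before it. Searched on both strands, the motif was found in 8 of 33 interferon-stimulated genes with a window (24.2%) and in 4 of 4 GTPases, against 3.46% of all 27025 genes. A match describes letters and not binding.

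Markers of Kupffer cells, the macrophages of the liver, had mostly negative changes in the same mice. Of 25 markers 2 fell, Fcgr1 (-0.78 ± 0.14, adjusted p = 0.00571) and Clec4f (-0.46 ± 0.12, adjusted p = 0.044), and 23 of the 25 had negative changes (median -0.35, against -0.02 for all genes). Fcgr1 was the list's 1 call in the reduced comparison (-0.90, adjusted p = 0.00889), where Clec4f gave -0.47 (adjusted p = 0.19) and the median was -0.33. The mean deviation of the list was 0.00 to 0.11 in knockout fasted and 0.29 to 0.41 in knockout fed livers. It was -0.48 to 0.06 in wild-type fasted and -0.23 to -0.08 in wild-type fed livers. The median change in wild-type liver was -0.05 and no marker was called there, nor was any called for the difference between genotypes. Clec4f, which is restricted to Kupffer cells, read 7.41, 7.57 and 7.69 in knockout fasted livers, against 7.97, 8.09, 7.96 and 8.04 in knockout fed livers. Vsig4 (-0.35 ± 0.16), Csf1r (-0.29 ± 0.14) and Adgre1 (-0.48 ± 0.14) did not pass. In whole liver RNA, fewer cells of a type and less RNA per cell cannot be told apart, and the part of these markers in the interferon result was not tested. Of the markers of other cells, 17 of 21 for T and NK cells, 12 of 14 for neutrophils, 8 of 13 for B and plasma cells and 12 of 18 for pancreas were dim, and limma called none of them (3, 2, 0 and 0 at an unadjusted p under 0.05). Among 26 stellate cell, 12 adipocyte and 6 red cell markers none was called either (7, 1 and 0 at an unadjusted p under 0.05), while 1 of 24 endothelial markers rose (Bmp2) and 1 of 13 cholangiocyte markers fell (Krt8). Bmp2 was called in the reduced comparison (adjusted p = 0.0469) and Krt8 was not (adjusted p = 0.0723). The stellate cell marker Pdgfrb was called lower there (-0.53, adjusted p = 0.0323). The mean deviation of the pancreas markers was 1.72 in wild-type fasted mouse 5 and 0.23 in wild-type fasted mouse 4, whose arrays are part of the fit. It was -0.24 to 0.03 in knockout livers.

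**Figure D3:**
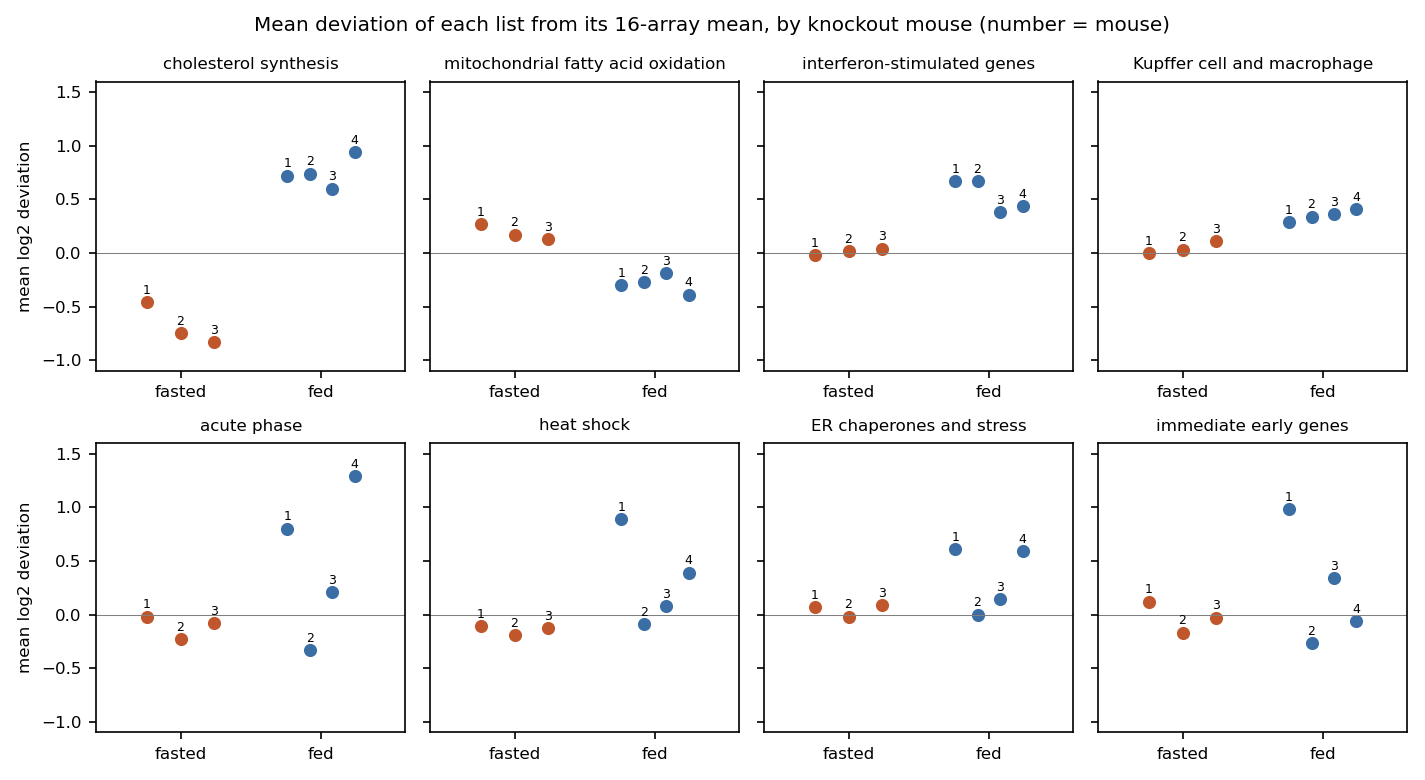
Mean log2 deviation of 8 gene lists from their 16-array means in each knockout fasted (orange, left) and knockout fed liver (blue, right), with mouse numbers. Cholesterol, fatty acid oxidation, interferon and Kupffer lists separate all fasted from all fed livers, whereas acute phase and heat shock lists are highest in fed mice 1 and 4.

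Fewer falls of stress genes were called without fed mice 1 and 4, where only 2 fed livers remain. Fed mouse 3, which remains, had an acute phase mean deviation of 0.21, against -0.44 to -0.26 in wild-type fed mice. Of 44 acute phase genes, which the liver makes in inflammation, 1 rose and 4 fell with all fed mice (median -0.32), and 4 rose and 1 fell without mice 1 and 4 (median -0.09). The 4 were the metallothioneins Mt1 and Mt2, the pantetheinase Vnn3 and the transcription factor Cebpd, and the 1 was Ifitm3, an antiviral membrane protein. Saa1, a serum amyloid, read 3.51, 3.31 and 3.07 in knockout fasted livers, against 8.28, 3.87, 6.60 and 9.71 in knockout fed livers. It fell 14.1-fold (-3.81 ± 0.95, adjusted p = 0.0324), and by 1.93 on the log2 scale without fed mice 1 and 4, where it was not called (adjusted p = 0.319). Saa2, a near copy that can share its probes, read 5.65, 5.42 and 5.74 in knockout fasted livers, against 10.69, 5.62, 8.88 and 11.48 in knockout fed livers (-3.56 ± 0.98, adjusted p = 0.0551). Steap4, a metalloreductase induced by inflammation, fell by 1.92 on the log2 scale (adjusted p = 0.0275), and gave -0.83 in the reduced comparison (adjusted p = 0.151). Lcn2, an iron-scavenging acute phase protein that neutrophils also hold, read 4.85, 4.56 and 5.24 in knockout fasted livers, against 8.87, 4.92, 6.59 and 10.83 in knockout fed livers, with overlapping groups (-2.92 ± 0.97, adjusted p = 0.123).

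Heat shock genes fell in 5 of 23 and none rose (median -0.38), and none was called in the reduced comparison (median -0.12). Hsp90aa1, an inducible HSP90 chaperone, read 9.07, 9.12 and 9.35 in knockout fasted livers, against 10.68, 9.42, 9.59 and 10.57 in knockout fed livers (-0.88 ± 0.23, adjusted p = 0.0457; -0.32 without mice 1 and 4, adjusted p = 0.329). Hspa4l fell by 1.06 on the log2 scale (adjusted p = 0.0168) and had a change of -0.55 without mice 1 and 4 (adjusted p = 0.108). Chaperones and stress genes of the endoplasmic reticulum fell in 8 of 42 and rose in 1 in knockout liver (median -0.32). In wild-type liver 19 of them fell and 2 rose (median -0.38), where 5.92% of all genes fell and 3.3% rose. In the reduced comparison of knockout liver 1 fell (median -0.04). That 1 was Ssr1, a subunit of the translocon-associated complex, which read 7.42, 7.36 and 7.40 in knockout fasted livers, against 8.03, 7.85, 7.93 and 8.29 in knockout fed livers (-0.63 ± 0.10, adjusted p = 0.0027; -0.49 without mice 1 and 4, adjusted p = 0.0369). Hspa5 (BiP), the main chaperone of this compartment, read 10.66, 10.48 and 10.82 in knockout fasted livers and 11.42, 10.62, 10.57 and 11.26 in knockout fed livers (-0.32 ± 0.16, adjusted p = 0.375). Socs3, an inhibitor of cytokine signalling, read 4.65, 4.47 and 4.51 in knockout fasted livers, against 7.85, 4.73, 4.74 and 5.91 in knockout fed livers (-1.26 ± 0.48, adjusted p = 0.196), and its other probe set gave -0.27.

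**Figure D4:**
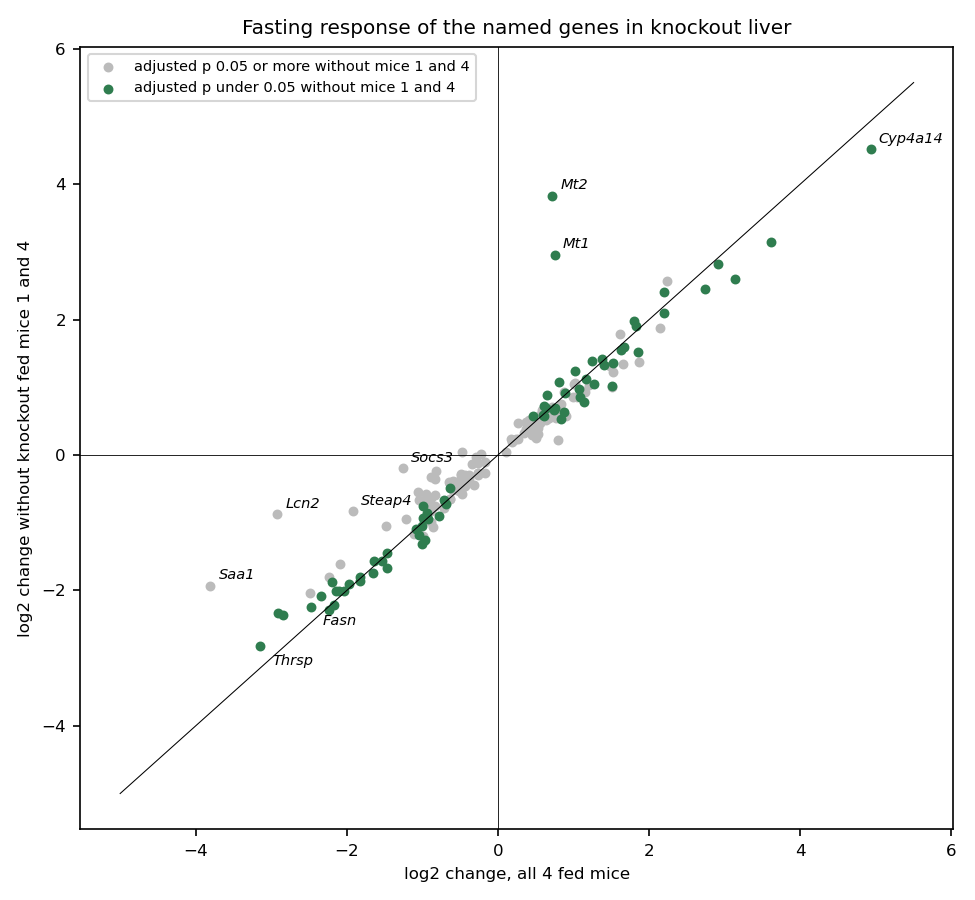
Log2 change (fasted minus fed, knockout liver) of the 192 named genes with all 4 fed mice (horizontal) and without fed mice 1 and 4 (vertical), green where the adjusted p without them is under 0.05, with a line of equal change. Most genes lie near the line, Mt1 and Mt2 lie above it at 2.96 and 3.83, and Saa1, Lcn2 and Steap4 move toward 0.

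Other large changes fell outside the lists. Slc41a2, a magnesium transporter, read 5.60, 5.24 and 5.22 in knockout fasted livers, against 8.17, 7.27, 8.11 and 9.5 in knockout fed livers (-2.91 ± 0.33, adjusted p = 0.000126; -2.33 in the reduced comparison, adjusted p = 9.93e-05). Serpina4-ps1, annotated as a pseudogene, read 6.83, 6.64 and 6.67 in knockout fasted livers, against 10.44, 8.93, 9.23 and 9.62 in knockout fed livers (-2.84 ± 0.43, adjusted p = 0.00121). Serpina genes are similar, so this signal may be shared. Aacs, which activates acetoacetate for lipid synthesis, read 4.70, 4.65 and 5.15 in knockout fasted livers, against 7.61, 6.94, 6.47 and 7.07 in knockout fed livers (-2.19 ± 0.34, adjusted p = 0.00161). Fabp5, a fatty acid-binding protein, fell by 2.49 on the log2 scale (adjusted p = 0.00957), and Serpina7, which encodes thyroxine-binding globulin, by 2.23 (adjusted p = 0.00436). Slc41a2, Serpina4-ps1 and Aacs were called without fed mice 1 and 4, while Fabp5 and Serpina7 gave -2.04 and -1.80 there (adjusted p = 0.129 and 0.0702). On the rising side stood Fam13a (1.85 ± 0.34, adjusted p = 0.0054), Cox6b2, a testis isoform of a cytochrome oxidase subunit (1.67 ± 0.24, adjusted p = 0.000998), and Nipal1, a magnesium transporter (1.66 ± 0.33, adjusted p = 0.00933). Without mice 1 and 4 Fam13a (1.52) and Cox6b2 (1.6) were called, and Nipal1 (1.35, adjusted p = 0.106) was not. Cyclin D1 (Ccnd1), which drives entry into the cell cycle, read 5.87, 4.99 and 5.29 in knockout fasted livers, against 6.70, 6.06, 7.05 and 6.17 in knockout fed livers (-1.11 ± 0.23, adjusted p = 0.011; -1.17 without mice 1 and 4, adjusted p = 0.0566).

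Whether the response differed from that of wild-type liver was tested as the knockout change minus the wild-type change. In wild-type liver 1838 genes were called (9.22%), 658 higher (3.3%) and 1180 lower (5.92%). Of the 373 genes that rose in knockout liver 60.1% also rose in wild-type liver, which is 34% of the wild-type rises. Of the 359 that fell 68.5% also fell in wild-type liver, which is 20.8% of the wild-type falls. The difference itself was called for 2 genes (0.01%), while 2441 had an unadjusted p under 0.05. That count was 0 without any 1 of the 3 knockout fasted mice, without knockout fed mouse 4 or without wild-type fed mouse 3 or 4 or wild-type fasted mouse 3 or 4. Without knockout fed mice 1 and 4 together 1 gene was called (0.00502%), Trim12a (-1.64, adjusted p = 0.00985), a gene of the antiviral Trim family. The count was also 1 without knockout fed mouse 1 or wild-type fasted mouse 1, 5 without knockout fed mouse 2, 7 without wild-type fed mouse 1 and 8 without knockout fed mouse 3. A missed threshold does not show that the responses were alike. Group sizes differed (3 and 4 knockout against 5 and 4 wild-type mice), so the counts of calls in the genotypes are not a measure of the size of the response.

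Hsd3b5, a male-biased steroid dehydrogenase of liver, was the larger of the 2 differences. It read 7.89, 7.14 and 7.10 in knockout fasted livers, against 8.27, 8.42, 8.74 and 8.03 in knockout fed livers, a change of -0.99 ± 0.29 (adjusted p = 0.0689). In wild-type mice it read 3.76 to 5.48 in fasted livers, against 8.24 to 8.50 in fed livers, a change of -3.70 (adjusted p = 2.39e-07). The knockout fasted livers thus lay above every wild-type fasted liver, and the difference was 2.72 ± 0.38 (adjusted p = 0.0284). Without fed mice 1 and 4 it was 2.50 (adjusted p = 0.168). Tc2n, which encodes a protein with C2 domains, read 2.49, 2.54 and 2.49 in knockout fasted livers, against 1.83, 1.93, 2.13 and 1.91 in knockout fed livers, dim in both groups. It changed by 0.56 ± 0.10 in knockout and by -0.39 in wild-type liver, a difference of 0.95 (adjusted p = 0.0284). Without fed mice 1 and 4 the difference was 0.87 (adjusted p = 0.177). Tc2n and Camk2d, a calcium-dependent kinase (0.65 ± 0.17 in knockout and -0.64 in wild-type liver, difference adjusted p = 0.15), were the 2 genes called in opposite directions in the genotypes, and neither was called in knockout liver in the reduced comparison (adjusted p = 0.0863 and 0.141).

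For the lipid genes the 2 responses had the same direction and the difference was not called. Cyp4a14 changed by 4.93 in knockout and 7.20 in wild-type liver, a difference of -2.27 (adjusted p = 0.342). Cpt1a changed by 1.27 in knockout and 1.39 in wild-type liver (difference adjusted p = 0.868), and Fasn by -2.48 in knockout and -1.85 in wild-type liver (difference adjusted p = 0.299). Of 29 genes of omega and peroxisomal oxidation 17 rose in knockout (median 0.69) and 21 in wild-type liver (median 0.90), and of 18 cholesterol genes 15 fell in knockout (median -1.50) and 16 in wild-type liver (median -1.22). The interferon-stimulated genes fell in 25 of 46 in knockout (median -0.59) and in 16 in wild-type liver (median -0.31), with no member called for the difference.

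**Figure D5:**
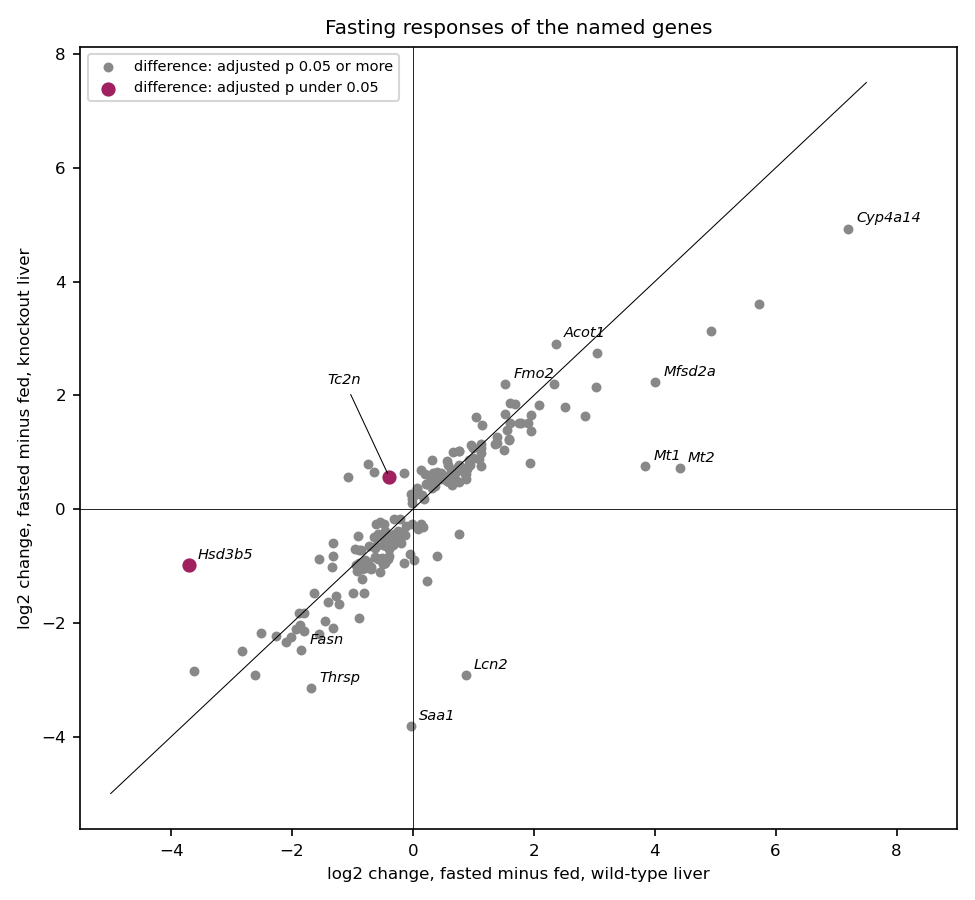
Log2 change of the 192 named genes in wild-type liver (horizontal, fasted minus fed) and knockout liver (vertical), large purple dots for the genes called for the difference, with a line of equal change. Most genes keep their direction, and Hsd3b5 stands off the line at -3.70 in wild-type and -0.99 in knockout liver.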

How the data were processed

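Liver RNA of 16 mice was hybridised to 1 array each. The values used are probe set intensities on a linear scale that the authors made with RMA, per the submitters' processing notes; the sources used here give no version or genome build. The deposited intensities ran from 1.87 to 9364, with no missing value. Log2 of the deposited intensities was taken here, with no further normalization. RMA as commonly run puts arrays on a common scale, so changes are read relative to other genes. Of 35519 probe sets, 21780 had 1 gene symbol in the platform annotation, 1605 had several and 12134 had none. Those with 1 symbol entered the tests, and 21689 of them matched a current gene by ID. For the 998 genes with several, the probe set with the highest mean stood for the gene, which left 19935 genes.

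limma 3.58.1 in R 4.3.3 fitted 4 group means to all arrays (12 residual and 4.55 prior degrees of freedom). Tests were two-sided, with Benjamini-Hochberg adjustment over all genes within a contrast. The labels call the replicates biological and give no batch, and the number of arrays limits the precision. The numbers of the replicates did not pair fasted with fed knockout mice.

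The named genes were the 3 PPAR genes, the 15 largest rises and 15 largest falls among called genes without overlap, the 10 each way without knockout fed mice 1 and 4, up to 6 called members each way of 40 pathway and 11 cell type lists (the 2 largest changes where under 2 were called), up to 8 each way called for the difference, and genes called in opposite directions. Predicted loci, receptor families of smell and small RNAs were left out of the largest changes. This gave 192 genes. Other genes in the text were chosen after their values were seen. The members, lists and rules were chosen with earlier results of these data known. A gene could belong to several lists, so counts of different lists can hold the same genes. List scores are means, over the genes of a list, of the deviation of log2 intensity from the 16-array mean of the gene.

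On simulated data, limma recovered 92% of 100 genes changed by 1 on the log2 scale in the knockout response, and 88% for the difference between genotypes. At 0.5 it recovered 58% and 23%. False calls made up 5.06% and 4.31%. The simulated noise was normal, independent between genes, and had the same SD for a gene in every group. In the data the median SD of brighter genes was 0.178 in knockout fed and 0.128 in knockout fasted livers, and genes of a list shifted together in single mice. The shares recovered can therefore be too high for these data. With 100 genes changed at each size, the simulated set also held more calls for the difference than the 2 of the data. Benjamini-Hochberg adjustment is stricter when fewer genes are called, so the 88% and 23% do not carry over to that test. Alternatives changed the scaling (quantile normalization, centring), the features (no dim genes, every probe set, the median over probe sets), the variance (robust with a trend, weighted arrays), the design (a replicate block) or the samples (knockout arrays alone, each array left out, knockout fed mice 1 and 4 left out).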

Additional observations from a re-analysis of the deposited data

Results flagged for a closer look

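Among the 4 knockout fed livers, 5 of the 192 named genes had a liver whose gap to the nearest other exceeded Dixon's limit of 0.829 of the group's range. Chance flags about 1 in 20 groups. Fed mouse 4 was low in 4 of these genes, with log2 intensities of 4.91 for Cyp4a31, 5.63 for Cyp4a10, 4.44 for Ccng2 (cyclin G2, a growth arrest gene) and 11.32 for Car3 (carbonic anhydrase 3). Fed mouse 2 was high for Gbp3, at 6.39. Without fed mice 1 and 4 the changes of Cyp4a31 and Cyp4a10 were still called, at 3.15 and 2.60, and those of Ccng2 and Gbp3 were 0.51 and -1.06 and were not called.

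Of 51 list scores, 2 had such a gap. The score of triglyceride and phospholipid synthesis was -0.26 in fed mouse 2, below the other fed livers, and that of xenobiotic P450 genes and nuclear receptors was 0.17 in fed mouse 3, above them.

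The fasting response differed between knockout and wild-type liver for Hsd3b5, by 2.72 on the log2 scale, and for Tc2n, by 0.95 (adjusted p = 0.0284 for both). Neither difference was called without knockout fed mice 1 and 4 (2.50 and 0.87, adjusted p = 0.168 and 0.177), and Tc2n was dim in both knockout groups.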

How the results depend on the processing

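The knockout response gave 732 calls. It gave 641 with centred arrays, 721 with an intensity trend and robust variance, 736 with the median over probe sets, 745 with the replicate block, 772 over all probe sets, 820 without dim genes, 834 with quantile normalization and 914 with array weights. It gave 401 calls from the knockout arrays alone (fewer samples), of which 354 were shared with the main result, and 218 without knockout fed mice 1 and 4. Leaving out each array in turn gave 330 to 951 calls. The 2 calls of the difference between genotypes became 1 without dim genes, with an intensity trend and robust variance, with the replicate block and without knockout fed mice 1 and 4, and 0 to 8 with each array left out. The cause of these changes was not tested. Same-numbered fasted and fed knockout mice had correlations of 0.17, 0.07 and -0.01 in their deviations from the group means, so the numbers were not taken to pair mice. Of the 192 named genes none changed sign while called, which genes without overlap could not do when arrays were left out. Of the 159 that were called, 57 were called under every alternative, 67 without knockout fed mice 1 and 4 and 88 to 154 with single arrays left out. List medians moved, by at least the SD of the list's scores within the knockout groups, in 23 of 1275 comparisons. They could not move when a wild-type array was left out, with the trend and robust variance, or with knockout arrays alone. The SD includes fed mice 1 and 4, so it is wide for stress lists. The acute phase median went from -0.32 to -0.09 without these mice and did not count as moved. With 3 fasted and 4 fed livers, most changes of 0.5 in the difference between genotypes were missed in the simulation. In these data, where 2 differences were called, larger changes can be missed too.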
